A study of Oryza sativa with 12 samples.

Results

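SALT (Os01g0348900, on chromosome 1) and P5CS1 (Os05g0455500, on chromosome 5) are 2 of the 37960 genes whose reads were counted in leaves and roots of rice (Oryza sativa). Both were chosen from the comparison of the genotypes, as stress genes that move in opposite directions in f3h plants, so their differences between genotypes are given as a description, with no test. The libraries came from seedlings 1 month old, grown from germination in Kimura nutrient solution at 28 °C with 12 h of light a day, and no stress treatment is named. The 4 groups were f3h leaf, WT leaf, f3h root and WT root, with 3 libraries each. WT is the cultivar ZH11 by the sample titles, and f3h carries the name of flavanone 3-hydroxylase, which acts early in the making of flavonoids. The genotype label calls this line a knockdown, while the design text of the series speaks of CRISPR mutants, and neither says which locus was altered or how many independent lines were used, so the altered gene was not checked here. Whether different plants gave the 3 libraries of a group is not labelled, so a p-value here reflects variation among libraries that could be purely technical.

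SALT encodes a small mannose-binding lectin of the jacalin-related family and is known in rice as a transcript that accumulates in roots and leaf sheaths under salt, drought, abscisic acid and jasmonate. P5CS1 encodes a pyrroline-5-carboxylate synthetase, the enzyme that takes glutamate into proline synthesis and is regarded as its limiting step. Proline is a compatible solute that plants build up when water is short. Transcripts of both genes are therefore widely used as markers of osmotic stress.

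Library totals ran from 31171931 to 37821918 counts in leaf and from 23740780 to 29687320 counts in root. The organ labels were checked with 6 leaf markers and 6 root markers. The summed leaf markers stood at 28308 to 28626 CPM (counts scaled to the library total) in f3h leaf and 32293 to 40391 CPM in WT leaf, against 63.4 to 67.7 CPM in f3h root and 4.80 to 5.94 CPM in WT root. The summed root markers stood at 3537 to 3576 CPM in f3h root and 3738 to 3885 CPM in WT root, against 10.7 to 14.2 CPM in f3h leaf and 10.8 to 17.1 CPM in WT leaf. No leaf marker was at 0 over any group, and in WT leaf the root markers LSI2, a silicon transporter gene, and CASP1, a gene of the endodermal Casparian strip, were. WT leaf replicate 1 stood apart: its counts differed from those of the other WT leaf libraries with a chi-square per degree of freedom of 57.5 and 61.1, against 5.42 to 7.09 in all other pairs within a group. The values of SALT and P5CS1 that use WT leaf are therefore also given without that library, and other results where its absence changed a count of calls by over 1.5 times.

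SALT was a root transcript in both genotypes, and its level was lower in f3h in both organs. In root it had 148, 141 and 144 CPM in the f3h libraries, against 922, 879 and 924 CPM in the WT libraries. The 3 f3h values lay close together, far under every WT value, and the group means were 144 ± 3.51 CPM in f3h root and 908 ± 25.5 CPM in WT root (SD, n = 3 each). The means differ 6.30-fold, and any single pair of an f3h and a WT root library differs 5.95-fold to 6.57-fold. The fitted log2 fold change of f3h over WT in root was -2.68 ± 0.04 (standard error), against a median of 0.01 over the 24583 genes fitted. In this comparison 57.3% of all tested genes had no overlap between the libraries of the genotypes, so non-overlapping libraries were common and nothing is read from them for SALT.

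In leaf SALT was scarce. The f3h leaf libraries held 14, 28 and 20 counts of it, or 0.381, 0.866 and 0.529 CPM, against 99, 91 and 69 counts, or 3.18, 2.60 and 2.04 CPM, in the WT leaf libraries. Every f3h leaf library was under every WT leaf library, with the closest pair 2.35-fold apart. Pooled over each group, the exact 95% Poisson interval of the level was 0.445 to 0.743 CPM in f3h leaf and 2.28 to 2.92 CPM in WT leaf, which covers counting error only. The fitted log2 fold change of f3h over WT was -2.11 ± 0.39, and -1.94 ± 0.45 without WT leaf replicate 1. In leaf 52.3% of all tested genes had no overlap between the genotypes.

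The SALT level in leaf, as a share of the level in root of the same genotype, was 0.410% in f3h and 0.287% in WT. For the summed root markers this share was 0.348% in f3h and 0.378% in WT. It ran among the single root markers from 0.00140% for LSI2 to 5.92% for CSLD1, a root hair gene, in f3h, and from 0% for LSI2 and CASP1 to 8.46% for CSLD1 in WT. The ranges of the summed root markers in f3h leaf and WT leaf, given above, overlapped, and those of SALT did not. Most of that sum was LSI1, at 10.3 CPM in f3h leaf and 9.87 CPM in WT leaf. Of the single markers, CSLD1 was lower in f3h leaf without overlap, at 0.370 to 0.544 CPM against 1.01 to 2.63 CPM in WT leaf. So was NRAMP5, at 1.02 to 1.82 CPM against 1.83 to 2.78 CPM. By edgeR CSLD1 passed the threshold (log2 -1.97 ± 0.46, adjusted p = 0.00906) and NRAMP5 did not (log2 -0.70 ± 0.33, adjusted p = 0.126). Between the genotypes in leaf 52.3% of all tested genes had no overlap, so nothing is read from that here. LSI1 and SHR1 overlapped, and LSI2 and CASP1 were at or near 0 in leaf. Whether root tissue or root RNA has a part in the leaf counts of SALT was not tested. In bulk tissue, fewer cells that express a gene and less of its RNA per cell cannot be told apart.

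**Figure D1:**
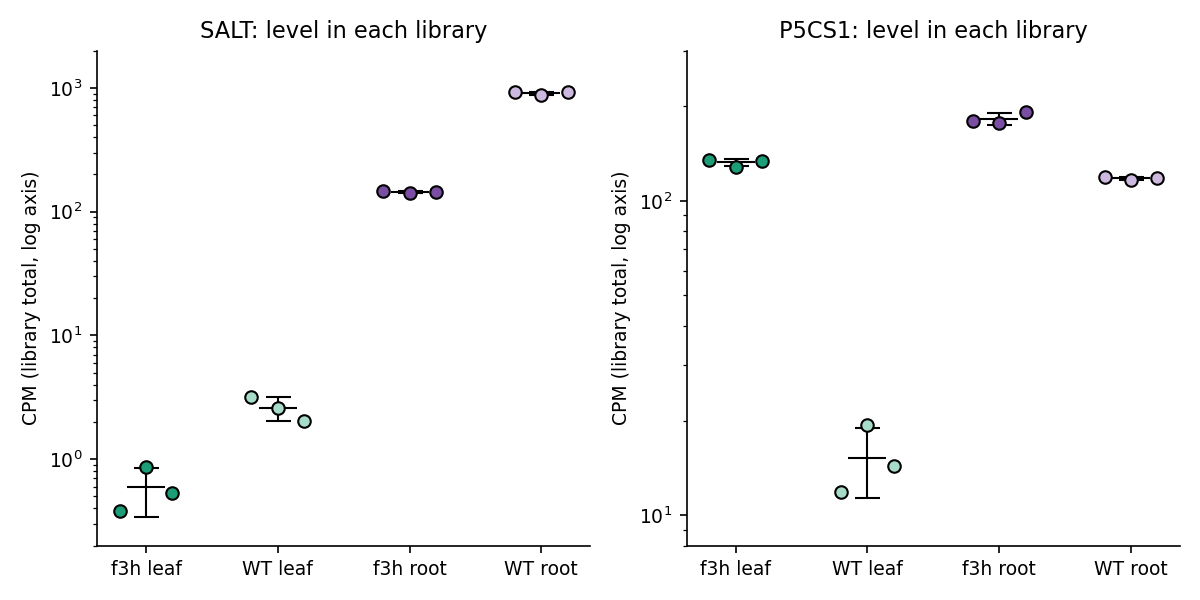
Level of SALT (left) and P5CS1 (right) in CPM on a log axis, in f3h leaf, WT leaf, f3h root and WT root. Each point is 1 library, and bars give the mean and SD of the 3 libraries. SALT lies under 4 CPM in all leaf libraries and is lower in f3h than in WT within each organ, while P5CS1 is lowest in WT leaf, at 11.8 to 19.3 CPM, and above 100 CPM in the other groups.

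P5CS1 was higher in f3h in both organs, by far more in leaf than in root. Its level was 135, 128 and 134 CPM in the f3h leaf libraries, against 11.8, 19.3 and 14.3 CPM in the WT leaf libraries. The f3h leaf values were nearly alike, with an SD of 2.62% of the mean, while the WT leaf values spread with an SD of 25.1% of the mean. The groups did not overlap, as for 52.3% of all tested genes in leaf, so nothing is read from that for P5CS1. The means were 132 ± 3.47 CPM in f3h leaf and 15.2 ± 3.80 CPM in WT leaf (SD, n = 3 each), 8.74-fold apart. WT leaf replicate 1 had the lowest of the WT values, and without it the log2 fold change of f3h over WT was 3.01 ± 0.08, against 3.15 ± 0.17 with it. The median over the 22438 genes fitted in leaf was -0.02.

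In root P5CS1 had 179, 177 and 191 CPM in the f3h libraries, against 119, 116 and 118 CPM in the WT libraries. The f3h libraries were again all above the WT libraries, but the smallest gap between a pair was 1.49-fold. In root 57.3% of all tested genes had no overlap between the genotypes, so nothing is read from that here either. The means were 182 ± 7.72 CPM in f3h root and 118 ± 1.18 CPM in WT root (SD, n = 3 each), and the log2 fold change was 0.60 ± 0.05.

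The leaf markers were higher in f3h root than in WT root, as given above. In f3h their summed level in root was 0.232% of that in leaf, and in WT 0.0144%. Whether leaf tissue or leaf RNA has a part in the root counts of P5CS1 was not tested.

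Set side by side, the f3h effect on P5CS1 was smaller in root than in leaf by 2.56 ± 0.17 on the log2 scale (root minus leaf -2.56), or 5.91-fold, and the difference was -2.41 without WT leaf replicate 1. The corresponding difference for SALT was -0.57 ± 0.27, with the f3h level further under the WT level in root. It was -0.23 without f3h leaf replicate 2, -0.73 without WT leaf replicate 1 and -0.82 without f3h leaf replicate 1, and the leaf counts behind it are few. The leaf and root effects come from separate libraries. These differences are made from the same contrasts that chose the genes and carry no test.

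The count of SALT divided by the count of P5CS1 in the same library does not depend on any scaling between libraries. This ratio was 0.00282, 0.00674 and 0.00395 in f3h leaf, against 0.268, 0.135 and 0.142 in WT leaf. In root it was 0.826, 0.796 and 0.756 in f3h, against 7.76, 7.54 and 7.82 in WT. Its values in the f3h libraries were all under those in the WT libraries of the same organ. The genes were chosen as moving in opposite directions in f3h, so a lower ratio in f3h follows from that choice and is no added support. Since the genes differ in length, the ratio compares libraries and not the levels of the genes.

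The organs were compared within each genotype, a contrast that did not choose the genes. Here both were tested with edgeR's quasi-likelihood test and Benjamini-Hochberg adjustment over all genes. These contrasts use the same libraries as the comparison of genotypes that chose the genes, so the adjusted p-values are not independent of that choice. SALT was higher in root than in leaf by a log2 fold change of 7.29 ± 0.13 in f3h (adjusted p = 1.63e-16, all 3 root libraries above all 3 leaf libraries) and of 7.88 ± 0.17 in WT (adjusted p = 2.50e-09, likewise), and of 8.02 ± 0.10 in WT without leaf replicate 1. By library totals the means were 244-fold apart in f3h and 349-fold apart in WT. Of all SALT counts in the 12 libraries, 99.6% were in root. At the same threshold 79.4% of all genes were called between root and leaf in f3h and 72.6% in WT, and the libraries of the organs did not overlap for 86.1% and 81.1% of genes, so a call as such says little, and the size of the SALT difference carries the result.

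For P5CS1 the organs differed clearly in WT. Root was higher than leaf by a log2 fold change of 2.39 ± 0.17 (adjusted p = 1.61e-06 in the edgeR test, higher in 3 of 3 root libraries), and of 2.22 ± 0.10 without WT leaf replicate 1 (adjusted p = 5.89e-12). In f3h the organs were close, and their order depended on the scaling. With TMM normalization, which assumes that most genes do not differ, root was lower than leaf by a log2 fold change of -0.20 ± 0.05 (adjusted p = 0.00200 by edgeR). With upper quartile normalization the value was 0.09 ± 0.05 (adjusted p = 0.0980), and with library totals alone it was 0.46 ± 0.05 (adjusted p = 5.08e-07), that is, root higher. In the fit of all 12 libraries it was -0.17 ± 0.12 (adjusted p = 0.207). Over these and the other settings the adjusted p lay between 5.08e-07 and 0.207.

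**Figure D2:**
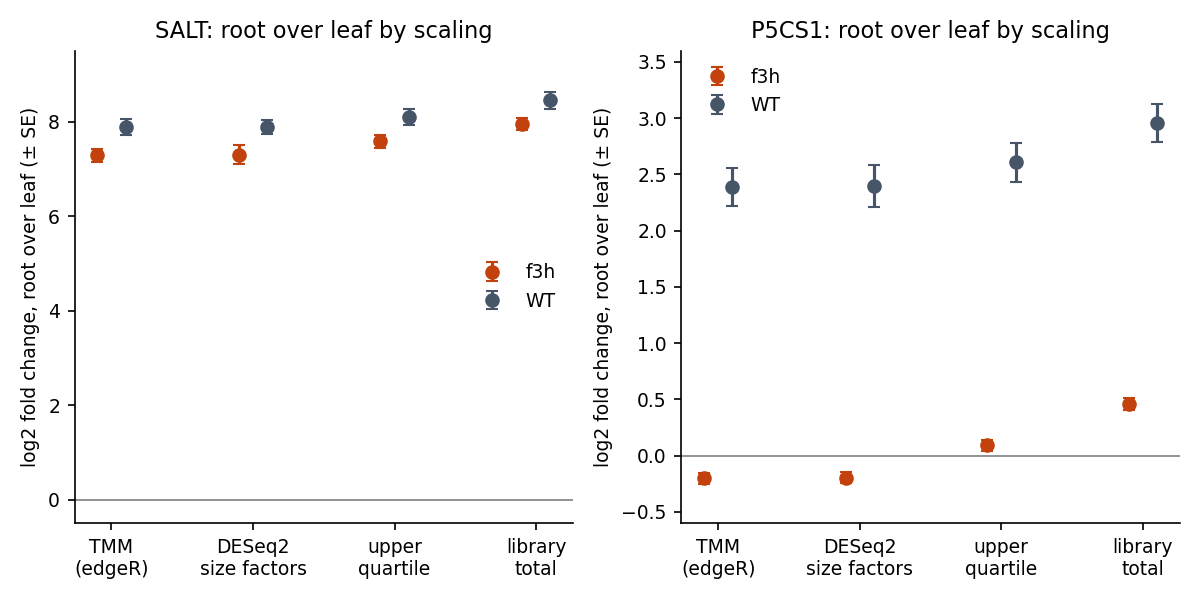
Log2 fold change of root over leaf for SALT (left) and P5CS1 (right) in f3h and in WT, with its standard error, under 4 ways of scaling the libraries. SALT lies above 7 throughout, and P5CS1 lies above 2 in WT, while in f3h it changes sign, with -0.20 under TMM and 0.46 under library totals.

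The scalings differed between organs for the whole transcriptome. With TMM the median log2 fold change of root over leaf over all genes was 0.08 in f3h and 0.11 in WT, and with library totals it was 0.74 and 0.67. Of the called genes 52.8% were higher in root in f3h with TMM and 71.9% with library totals, and 54.0% and 71.3% in WT. The CPM levels of P5CS1 ran in the order f3h root, f3h leaf, WT root, WT leaf, with no overlap between neighbours. With TMM effective library sizes the means were 165 ± 3.28 in f3h leaf, 147 ± 5.11 in f3h root, 96.5 ± 0.279 in WT root and 18.3 ± 4.51 in WT leaf (SD, n = 3 each), so the first and the second changed places. The order of SALT was WT root, f3h root, WT leaf, f3h leaf on both scales. Within an organ no scaling turned the direction of either gene.

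The other genes of proline metabolism were taken from a list of 8 loci, of which those named here carry the name in the reference gene table and the rest are given by locus, their place in the pathway not checked. In leaf all 8 were tested, and 4 rose and 2 fell in f3h, where 17.9% of all genes rose and 18.6% fell. The median log2 fold change of the list was 0.39, against -0.02 over all genes. This list and the later ones were chosen with earlier results of these data known, so their counts are given as a description. OAT (Os03g0643300), the ornithine aminotransferase that feeds the same pathway from ornithine, rose most, with 72.2, 67.7 and 69.9 CPM in f3h leaf against 21.8, 20.1 and 22.5 CPM in WT leaf (log2 1.73 ± 0.10, adjusted p = 1.79e-06 by edgeR). ARG1 (Os04g0106300), an arginase, which yields ornithine, rose as well (log2 0.61 ± 0.10, adjusted p = 0.00172). P5CS2 (Os01g0848200), the paralogue of P5CS1, had 8.40 to 8.96 CPM in f3h leaf and 6.88 to 8.05 CPM in WT leaf (log2 0.26 ± 0.15, adjusted p = 0.197) and did not pass. The level of P5CS2 in leaf stayed under 10 CPM in every library, and that of P5CS1 was above 100 CPM in f3h leaf. The paralogues may share reads to an unknown extent, which was not tested.

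The locus of the list that fell most in leaf was Os10g0550900, with 10.9, 10.2 and 8.46 CPM in f3h leaf against 41.3, 69.5 and 67.8 CPM in WT leaf (log2 -2.57 ± 0.21, adjusted p = 2.19e-05 by edgeR). WT leaf replicate 1 was again the WT library nearest to f3h, and without it the value was -2.77. Os05g0536400 (log2 0.75 ± 0.11) and Os01g0948400 (log2 0.52 ± 0.10) rose, Os01g0908600 fell (log2 -0.997 ± 0.23, adjusted p = 0.00887), a call lost in the fit of all 12 libraries (adjusted p = 0.0601), and Os03g0644400 did not pass (log2 0.11, adjusted p = 0.506).

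In root 7 of the 8 loci were tested, and 3 rose and 2 fell in f3h, where 24.9% of all genes rose and 25.4% fell. The list median was 0.18, against 0.01 over all genes. Here it was P5CS2 that rose most, with 3.33, 2.22 and 3.71 CPM in f3h root against 0.911, 1.13 and 1.01 CPM in WT root (log2 1.56 ± 0.38, adjusted p = 0.000930 by edgeR). These levels rest on 62 to 88 counts in an f3h root library and 25 to 31 in a WT root library. OAT stood at 43.6 to 46.2 CPM in f3h root against 49.9 to 52.2 CPM in WT root (log2 -0.21 ± 0.08, adjusted p = 0.0237). That call was lost without WT root replicate 1 (adjusted p = 0.0783), without f3h root replicate 2 or 3 (adjusted p = 0.0674 and 0.0766), in the fit of all 12 libraries (adjusted p = 0.0694) and with library totals (adjusted p = 0.0529). ARG1 did not pass (log2 -0.13, adjusted p = 0.467).

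Os10g0550900, which fell in leaf, stood at 36.5, 41.5 and 35.1 CPM in f3h root and 32.6, 32.1 and 26.7 CPM in WT root (log2 0.28 ± 0.10, adjusted p = 0.0195), a call lost without WT root replicate 3 (adjusted p = 0.150), without f3h root replicate 2 (adjusted p = 0.143) and in the fit of all 12 libraries (adjusted p = 0.218). Os05g0536400 rose (log2 0.28 ± 0.07, adjusted p = 0.00150), Os03g0644400 fell (log2 -0.51 ± 0.11, adjusted p = 0.000409), and Os01g0948400 did not pass (log2 0.18, adjusted p = 0.133). The difference of the f3h effect between root and leaf, fitted on all 12 libraries, was past the threshold for 7 of the 8 loci, where 33.4% of all genes were. Os01g0948400 was the one that did not pass (adjusted p = 0.0818 by edgeR).

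**Figure D3:**
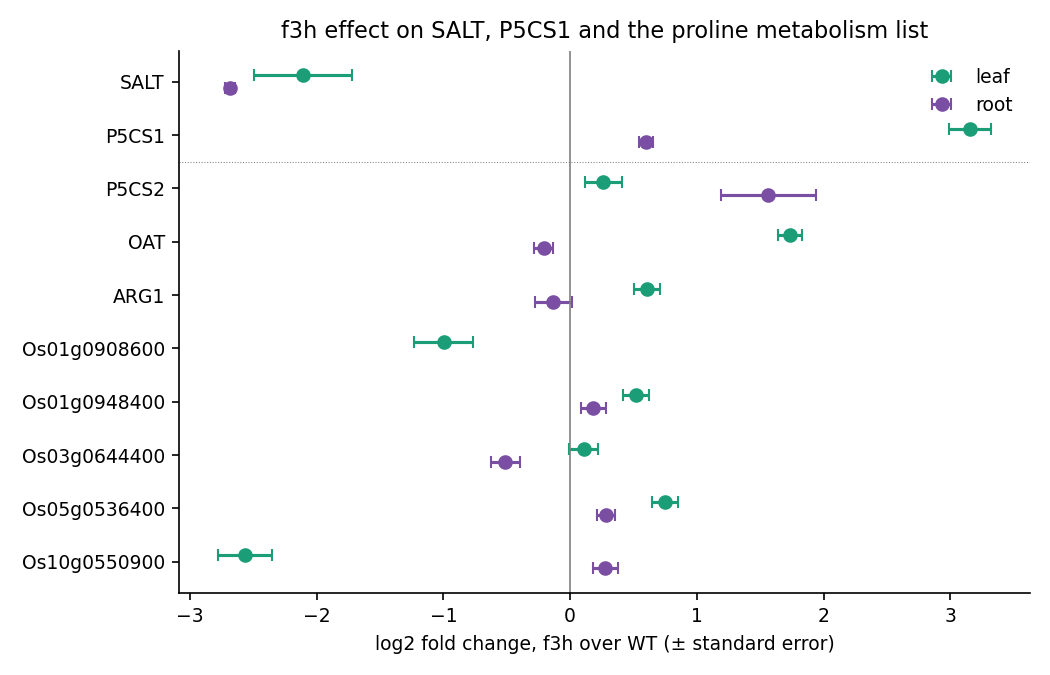
Log2 fold change of f3h over WT, with its standard error, in leaf and in root for SALT and P5CS1 (above the dotted line, given as a description) and for the 8 loci of the proline metabolism list. SALT lies left of 0 and P5CS1 right of 0 in both organs. OAT lies at 1.73 in leaf and -0.21 in root, and Os10g0550900 at -2.57 and 0.28, and Os01g0908600 was too low in root to be tested.

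Glutamate is the substrate of P5CS1. The list for glutamate synthesis also holds glutamine synthetase genes, whose enzymes use glutamate, so its counts do not measure glutamate supply. Of the 7 loci listed for glutamate synthesis, 2 rose and 1 fell among 6 tested in leaf, and 1 rose and 4 fell among 7 tested in root. Over all genes 17.9% rose and 18.6% fell in leaf, and 24.9% rose and 25.4% fell in root. In leaf the cytosolic glutamine synthetase gene GS1;1 (Os02g0735200) fell (log2 -1.20 ± 0.09, adjusted p = 1.11e-05 by edgeR), and Os01g0681900 rose (log2 1.64 ± 0.24, adjusted p = 0.000766). In root another cytosolic glutamine synthetase gene, GS1;2 (Os03g0223400), fell (log2 -1.24 ± 0.05, adjusted p = 8.38e-19), as did FD-GOGAT (Os07g0658400), a ferredoxin-dependent glutamate synthase gene (log2 -0.80 ± 0.05). Without WT leaf replicate 1, 5 members in place of 3 were called in leaf.

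Of 8 genes for other compatible solutes tested by edgeR, 0 rose and 1 fell in leaf, where 17.9% of all genes rose and 18.6% fell, and 0 rose and 5 fell in root, where 24.9% rose and 25.4% fell. The leaf count that fell is near the background, and the list medians were 0.03 in leaf and -0.39 in root. At an unadjusted p under 0.05 the count that was higher was 1 in leaf and 0 in root by edgeR, and DESeq2 and limma voom each called 1 higher in leaf and 0 in root. The trehalose phosphate phosphatase gene TPP1 (Os02g0661100, log2 -1.22 ± 0.09, adjusted p = 6.00e-12) and the betaine aldehyde dehydrogenase gene BADH1 (Os04g0464200, log2 -0.55 ± 0.05, adjusted p = 8.10e-10) were those with the smallest p in root, and Os05g0518600 was the one that fell in leaf (log2 -0.74 ± 0.08). The leaf count was 2 with DESeq2, 2 with limma voom and 3 in the fit of all 12 libraries, and 4 without WT leaf replicate 1, 2 without WT leaf replicate 2 and 2 without WT leaf replicate 3. The root count was 3 in the fit of all 12 libraries.

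Among 12 sodium and potassium transport loci, 0 rose and 5 fell of 10 tested in leaf, and 2 rose and 1 fell of 10 tested in root. Over all genes 17.9% rose and 18.6% fell in leaf, and 24.9% rose and 25.4% fell in root, so the root counts are no higher than the background. The leaf count of 0 was also 0 at an unadjusted p under 0.05 by edgeR, and with DESeq2 and limma voom. DESeq2 and limma voom each called 2 lower in root. Of the 2 members with the smallest p in each organ, Os05g0148600 fell in leaf (log2 -0.55 ± 0.08, adjusted p = 0.000815 by edgeR), and Os12g0641100 rose in root (log2 0.19 ± 0.04, adjusted p = 0.000197). The other gene that rose in root was HKT1;1 (Os04g0607500), a sodium transporter gene named here after its values were seen. Its root difference (log2 1.35 ± 0.51, adjusted p = 0.0276 by edgeR) rests on few counts. These were 32 to 65 in an f3h root library and 14 to 24 in a WT root library. In leaf HKT1;1 fell (log2 -0.59 ± 0.11, adjusted p = 0.00252 by edgeR). HKT1;5 (Os01g0307500), a sodium transporter gene that keeps sodium out of the shoot, was among the 2 in both organs and fell in both, to 4.20 ± 0.432 CPM in f3h leaf against 9.69 ± 2.43 CPM in WT leaf (log2 -1.17 ± 0.21, adjusted p = 0.00204 by edgeR), and to 24.3 ± 1.98 CPM in f3h root against 57.5 ± 1.94 CPM in WT root (log2 -1.28 ± 0.09, adjusted p = 2.99e-13; SD, n = 3 each). The leaf count of the list was 3 without any one of f3h leaf replicates 1, 2 and 3.

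Genes for proteins that rice makes under stress were mostly lower in f3h in root, and in leaf more of them rose than fell. Of 12 listed, 5 rose and 3 fell among 11 tested in leaf, and 3 rose and 8 fell among 12 tested in root, with list medians of 1.22 and -0.77. Over all genes 17.9% rose and 18.6% fell in leaf, and 24.9% rose and 25.4% fell in root. By the interaction term the f3h effect was lower in root than in leaf for 9 of the 12 and higher for 1. Over all genes it was lower for 17.4% and higher for 16.0%. The list was chosen with earlier results of these data known, so these counts are a description and no independent support. In leaf a gene of the late embryogenesis abundant class, LEA3 (Os05g0542500), rose (log2 3.43 ± 0.23, adjusted p = 6.49e-06 by edgeR), as P5CS1 was higher there. In root LEA3 fell (log2 -4.57 ± 0.28, adjusted p = 3.01e-14 by edgeR), opposite to P5CS1. The pathogenesis-related gene PBZ1 (Os12g0555500) fell in leaf (log2 -1.70 ± 0.14, adjusted p = 1.89e-05 by edgeR) and rose in root (log2 1.18 ± 0.12, adjusted p = 2.27e-09). In root the dehydrin gene RAB21 (Os11g0454300) fell, with 1.09, 1.22 and 0.674 CPM in f3h root against 65.4, 66.1 and 65.1 CPM in WT root (log2 -6.05 ± 0.14), as SALT was lower there. In leaf RAB21 rose (log2 2.51 ± 0.24, adjusted p = 5.70e-05 by edgeR), opposite to SALT. RAB16D (Os11g0453900), another dehydrin gene, fell in root, with 0, 2 and 0 counts in the f3h root libraries against 581, 687 and 711 counts in the WT root libraries. The dehydrin genes may share reads to an unknown extent, as no sequences were compared.

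Of 14 stress transcription factor loci, 5 rose and 1 fell among 12 tested in leaf, and 1 rose and 10 fell among 14 tested in root, with list medians of 0.05 and -1.37, where 17.9% of all genes rose and 18.6% fell in leaf, and 24.9% rose and 25.4% fell in root. The members with the smallest p were NAC5 (Os11g0184900, log2 1.73 ± 0.11, adjusted p = 3.79e-06 by edgeR) and BZIP23 (Os02g0766700, log2 0.64 ± 0.10, adjusted p = 0.000946) in leaf, and MYB2 (Os03g0315400, log2 -2.15 ± 0.06, adjusted p = 5.06e-22) and DREB1B (Os09g0522000, adjusted p = 6.58e-22) in root. DREB1B had 0, 13 and 9 counts in the f3h root libraries, against 1502, 1619 and 1563 in the WT root libraries. In the other organ NAC5 fell (root, log2 -0.54 ± 0.05, adjusted p = 6.59e-10 by edgeR) and MYB2 rose (leaf, log2 0.68 ± 0.21, adjusted p = 0.0319). BZIP23 did not pass in root (log2 -0.21, adjusted p = 0.176), nor DREB1B in leaf (log2 -0.24, adjusted p = 0.641). The leaf count of 6 called members was 3 without f3h leaf replicate 2 and 3 without f3h leaf replicate 3. As this list too was chosen with earlier results of these data known, its counts are a description and no independent support.

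Loci with a pattern like that of SALT or P5CS1 over the 12 libraries were sought by the root mean square difference of log2 CPM after each gene was centred on its own mean, among 20424 loci. The nearest to P5CS1 were Os12g0113500 at 0.25 and Os03g0823400 at 0.28 on the log2 scale, against a median of 1.47 over all loci compared, and 24 loci lay within 0.5. Os12g0113500 averaged 93.5 CPM in f3h leaf, 10.4 CPM in WT leaf, 103 CPM in f3h root and 65.2 CPM in WT root. Among the listed genes Os01g0681900 (rank 36) and NAC5 (rank 184) were nearest to P5CS1, and OAT was at rank 654. NAC5 did not share the root difference of P5CS1, with 134, 124 and 138 CPM in f3h root against 188, 191 and 185 CPM in WT root.

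**Figure D4:**
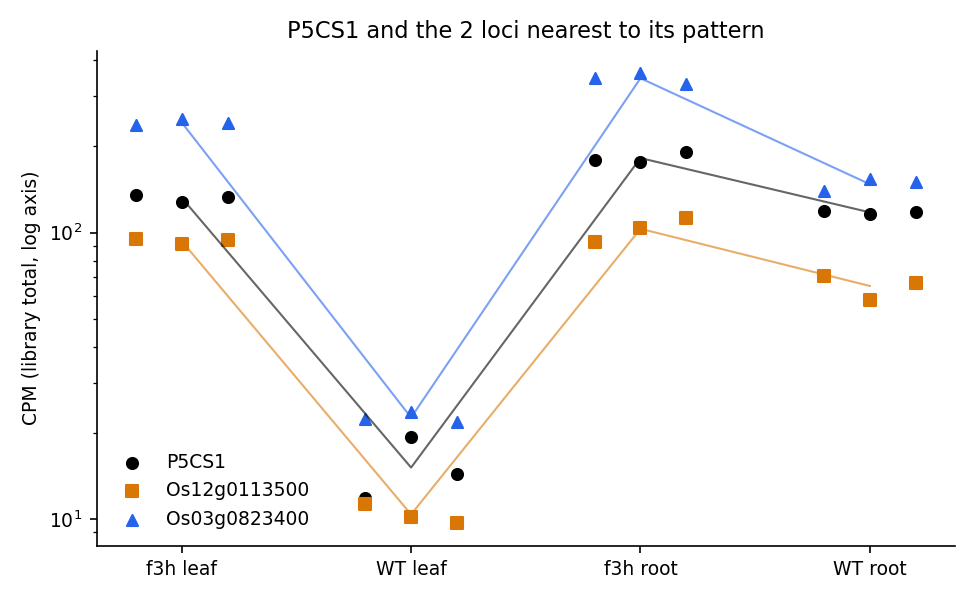
Level of P5CS1 and of the 2 loci nearest to its pattern, Os12g0113500 and Os03g0823400, in CPM on a log axis for f3h leaf, WT leaf, f3h root and WT root. Each point is 1 library and the lines join the group means. All 3 are lowest in WT leaf, where P5CS1 averages 15.2 CPM and Os12g0113500 averages 10.4 CPM.

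No locus came as near to SALT. The closest were Os03g0103100 at 0.64 and Os08g0302000 at 0.67 on the log2 scale, against a median of 3.98, and none lay within 0.5. Os03g0103100 had 58.4, 53.9 and 52.1 CPM in f3h root against 219, 216 and 189 CPM in WT root, and 2 to 5 counts in an f3h leaf library against 6 to 12 in a WT leaf library. The distance between SALT and P5CS1 themselves was 3.90. The points share their libraries, and the distances involving SALT depend on the prior count given to its low leaf values: with a prior count of 0.5, 3 of its 5 nearest loci were the same.

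No tested locus near SALT or P5CS1 in identifier order passed the threshold in both organs in the direction of that gene. Os01g0348800, the locus before SALT, had 12 counts over the WT root libraries and 0 in the other 9 libraries, and Os01g0349000, the locus after it, stood at 3.41 ± 0.714 CPM in f3h root and 3.68 ± 0.981 CPM in WT root (SD, n = 3 each), a difference that did not pass (adjusted p = 0.702 by edgeR). Os05g0455400, the locus before P5CS1, fell in f3h leaf (log2 -0.97, adjusted p = 0.00125) and in f3h root (log2 -0.85, adjusted p = 3.73e-11), opposite to P5CS1. Os05g0455600, the locus after it, did not pass in leaf (log2 0.11, adjusted p = 0.589) or in root (log2 0.06, adjusted p = 0.583). Further from SALT, Os01g0348700 rose in f3h leaf (log2 0.65, adjusted p = 0.00336 by edgeR) and in f3h root (log2 0.53, adjusted p = 4.06e-10), and so did Os01g0349600 (log2 0.51 in leaf, adjusted p = 0.00541, and 1.004 in root, adjusted p = 9.32e-07), opposite to SALT. Os01g0348600 fell in f3h root (log2 -0.27, adjusted p = 0.000502), where SALT was lower too, and did not pass in leaf (adjusted p = 0.786). Further from P5CS1, Os05g0455800 rose in f3h root (log2 0.29, adjusted p = 0.00210), Os05g0455700 did not pass in either organ, and Os05g0455200 had at most 4 counts in a library.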

How the data were processed

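RNA-seq libraries from f3h and WT leaf and root were analysed, 12 in all, 3 a group. What the authors deposited is a table of unnormalized gene-level counts. The tools in the submitters' processing notes are HISAT2, featureCounts, fastp and DESeq. For versions, genome build, annotation and strand setting, the entry is "not given in the sources used here", so antisense reads cannot be told apart. The test was edgeR's (version 4.0.16, R 4.3.3; filterByExpr, TMM, quasi-likelihood test, Benjamini-Hochberg over all genes tested, threshold 0.05), separately for each pair of groups. The difference of effects was fitted on all 12 libraries. Standard errors derive from the F statistic. CPM is counts scaled to the library total. Log2 CPM for patterns used a prior count of 2, among loci averaging 1 or more. With 3 libraries on either side, the smallest exact permutation p is 0.1. The members and lists were chosen with earlier results of these data known. Named genes are the 2 members, the proline list, the 2 members of each other list with the smallest p past the threshold in each organ, the nearest patterns and neighbouring loci. Of 75 listed names, 46 stood in the RefSeq gene table (assembly ASM3414082v1) within 10% of the gene order implied by the locus identifier. Others are given by locus. The replicate numbers do not pair the libraries: deviations of same-numbered libraries from their group means correlated between -0.0345 and 0.0472. DESeq2 1.42.0, limma 3.58.1, another normalization, no filter, a replicate block and leaving out libraries were tried. The procedure was tested on simulated data.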

Additional observations from a re-analysis of the deposited data

Results flagged for a closer look

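For 7 of the 8 loci of the proline metabolism list the f3h effect differed between the organs, by the interaction term of edgeR on all 12 libraries with Benjamini-Hochberg adjustment. Over all genes tested, 33.4% were past the same threshold. Given as the log2 effect in root minus that in leaf, the difference was 1.29 for P5CS2 (adjusted p = 0.00405) and 2.84 for Os10g0550900 (adjusted p = 6.11e-07). It was -1.95 for OAT (adjusted p = 8.27e-09), -0.74 for ARG1 (adjusted p = 0.00429), -0.63 for Os03g0644400 (adjusted p = 0.00444), -0.47 for Os05g0536400 (adjusted p = 0.0127) and -2.16 for Os01g0908600 (adjusted p = 0.0438), which was too low in root to be tested there. OAT and Os10g0550900 were called in opposite directions in leaf and root, but their root calls were each lost when single root libraries were left out.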

How the results depend on the processing

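The library-total setting was chosen after seeing the data. The f3h effects on SALT and P5CS1 kept their direction in each organ, and their root over leaf calls in WT and that of SALT in f3h held, under all settings run (upper quartile, DESeq2, no count filter, limma voom, 12 libraries, replicate block, library totals, each library left out). P5CS1 in root over leaf, f3h, was 0.0936 with upper quartile normalization and 0.460 with library totals, against -0.201 with TMM, and -0.169 and not called with all 12 libraries. Its leave-one-out values were -0.229 to -0.182. Called members of the other compatible solutes list in leaf numbered 2 with DESeq2, 2 with limma voom and 3 with all 12 libraries, and 3 in root with all 12 libraries, against 1 and 5. With single libraries left out, the leaf counts ranged from 1 to 4 for that list, 2 to 5 for glutamate synthesis, 3 to 5 for sodium and potassium transport and 3 to 7 for stress transcription factors. For these lists the cause was not tested. Under the replicate block, which shares only a number, 7449 genes were called in leaf and 12225 in root, against 8188 and 12362, and P5CS1 in f3h root over leaf was -0.201. Of 12 same-numbered pairs, 6 correlated best with their own number. Depth limits SALT in leaf.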
